A study of Homo sapiens with 6 samples.

Results

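The MYC, MAX and MLX network was followed here as 10 genes: MYC, MAX, MXD1, MXD3, MXD4, MXI1, MNT, MLX, MLXIP and TXNIP. They were chosen by name from the 58735 genes of the count table, before any filter but with earlier results of these data known. All 10 held enough reads to be tested. The cells were BT549, an established basal-like breast cancer line. DMSO-treated cells gave 3 libraries (A, B and C) and cells treated with AS1842856, a small molecule that binds FOXO1 and keeps it from binding DNA, gave 3 more, all after 48 h. The dose is 200 nM in the sample labels and 1 μM in the methods of the study, and this difference was not resolved here. No gene was edited or silenced in either group, and both groups come from this 1 cell line. The paper proposes that AS1842856 modulates FOXO1 and does not only inhibit it. In these libraries the FOXO1 transcript itself stood at 329% of the DMSO level with AS1842856. The part of this rise in the results below was not tested.

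Proteins of this network pair through a helix-loop-helix and leucine zipper domain and bind E-box DNA, whose core reads CACGTG. MAX is the shared partner on one side. With MYC it forms an activating dimer, and with MXD1, MXD3, MXD4, MXI1 or MNT it forms dimers that recruit the SIN3 corepressor to the same sites. MLX is the shared partner on the other side. It pairs with MLXIP (MondoA), which moves to the nucleus when cells hold glucose-6-phosphate, and also with MXD1, MXD4 and MNT. TXNIP, an alpha-arrestin that binds thioredoxin and restrains glucose uptake, is the best known target of the MondoA:MLX dimer. TXNIP and MXI1 have also been described as FOXO targets.

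The promoters shown are those of 4 network genes that carry letters that these dimers, or FOXO factors, are known to bind. MXI1 and MXD3 also carry such letters, as given below, but their promoters are not printed. Each sequence is from RefSeq on GRCh38.p14, written 5′ to 3′ on the strand of the gene, and stops at the nearest annotated exon. It starts 250 bases before the RefSeq start site, and positions are counted from that site as +1. Capitals mark a match to CACGTG (the E-box), CACGCG or CACGAG (variants of it), or TGTTTAC (the forkhead motif that FOXO factors bind), each read on both strands. TXNIP lies at chr1:145996601-145996829 on the minus strand, MXD4 at chr4:2262295-2262359 on the minus strand, MNT at chr17:2401119-2401310 on the minus strand, and MLX at chr17:42566850-42567067 on the plus strand.
TXNIP: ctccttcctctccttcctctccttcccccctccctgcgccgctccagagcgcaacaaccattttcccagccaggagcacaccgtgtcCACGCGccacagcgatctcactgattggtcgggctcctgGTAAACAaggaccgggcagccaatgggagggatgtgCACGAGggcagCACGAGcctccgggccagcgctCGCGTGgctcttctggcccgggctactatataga
MXD4: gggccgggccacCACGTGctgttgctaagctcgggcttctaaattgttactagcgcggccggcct
MNT: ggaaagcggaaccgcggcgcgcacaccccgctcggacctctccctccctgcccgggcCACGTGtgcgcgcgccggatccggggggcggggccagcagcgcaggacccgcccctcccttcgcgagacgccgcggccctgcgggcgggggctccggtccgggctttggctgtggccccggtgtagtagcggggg
MLX: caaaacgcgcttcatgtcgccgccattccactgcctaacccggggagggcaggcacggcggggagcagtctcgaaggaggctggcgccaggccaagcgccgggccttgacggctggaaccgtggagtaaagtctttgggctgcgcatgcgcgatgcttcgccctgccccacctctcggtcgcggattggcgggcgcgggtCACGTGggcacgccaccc
In the TXNIP sequence the variants CACGCG and CGCGTG begin at -163 and -55, CACGAG begins at -88 and again at -77, and GTAAACA, the forkhead motif on the other strand, begins at -124. The single CACGTG begins at -238 in MXD4, at -193 in MNT and at -50 in MLX.

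Over windows from 250 bases before to 50 bases after the start site, RefSeq promoters were found for 9 of the 10 genes in 13 windows. CACGTG was present in windows of 3 of the 9 genes (MXD4, MNT and MLX) and in 7.23% of all 34943 windows of this length. CACGCG or CGCGTG was present in 3 genes (TXNIP, MXD3 and MXI1) and in 11.4% of all windows, and CACGAG or CTCGTG in 1 gene (TXNIP) and in 6.79% of all windows. TGTTTAC or GTAAACA was present in 2 genes (TXNIP and MXI1) and in 3.42% of all windows. The windows of MAX, MXD1 and MLXIP held none of these letters. A gene was counted here if any of its windows held the letters, while the shares are per window. The counts of genes and the shares of windows are therefore not like for like. These matches describe sequence only, since no binding was measured.

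The libraries held between 15289500 and 22981832 counts, and 14338 genes were tested. Levels below are CPM after TMM scaling (reads of a gene relative to the reads of the whole library), given as mean ± SD with n = 3 per group, and changes are log2 fold changes of AS1842856 over DMSO from edgeR's quasi-likelihood test with Benjamini-Hochberg adjustment over all genes tested. A gene was called at an adjusted p under 0.05. All 6 mesenchymal markers of a basal B line were detected in every library, with a summed level of 3614 to 3737 CPM in DMSO and 3346 to 3399 CPM with AS1842856. Within that sum FN1 rose from 450 ± 32.4 to 981 ± 21.8 CPM, while VIM, CDH2, CD44, EGFR and CAV1 fell. Of 8 epithelial and luminal markers, CDH1 and ESR1 had at most 1 count in any library, and the summed level of the 8 went from between 121 and 129 CPM to between 40.9 and 44.2 CPM, most of it in KRT8, KRT18 and ERBB2, which fell, while KRT19 rose by 1.61 on the log2 scale. Of the leukocyte and endothelial markers, CD3E and CDH5 were at 0, PECAM1 had at most 1 count in any library, and PTPRC stood at 0.700 to 1.56 CPM in DMSO and 2.64 to 3.59 CPM with AS1842856. The part of these shifts in the results below was not tested. In bulk RNA, fewer cells that express a gene and less RNA per cell cannot be told apart.

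With AS1842856, MYC and the 4 genes of the MXD family fell together, TXNIP and MNT rose, and MAX, MLX and MLXIP were not called. The decreases left between 39.8% (MYC) and 52.6% (MXD3) of the DMSO level, and the increases reached 129% (TXNIP) and 114% (MNT). Of the 10 genes, 7 were called, where 56.0% of all genes tested were. In the lower direction 5 of 10 were called, where 28.4% of all genes were, and in the higher direction 2 of 10, where 27.6% were. A log2 fold change of -1 or below together with a call was found in 4 of 10 (MYC, MXD1, MXD4 and MXI1) and in 6.33% of all genes tested. In 8 of the 10 genes the 2 groups of libraries did not overlap, and this held for 59.9% of all genes. The median change was -0.49 over the 10 genes and 0.00 over all genes tested. Because the 10 genes were chosen with earlier results known, these comparisons are descriptive and do not test the set.

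**Figure D1:**
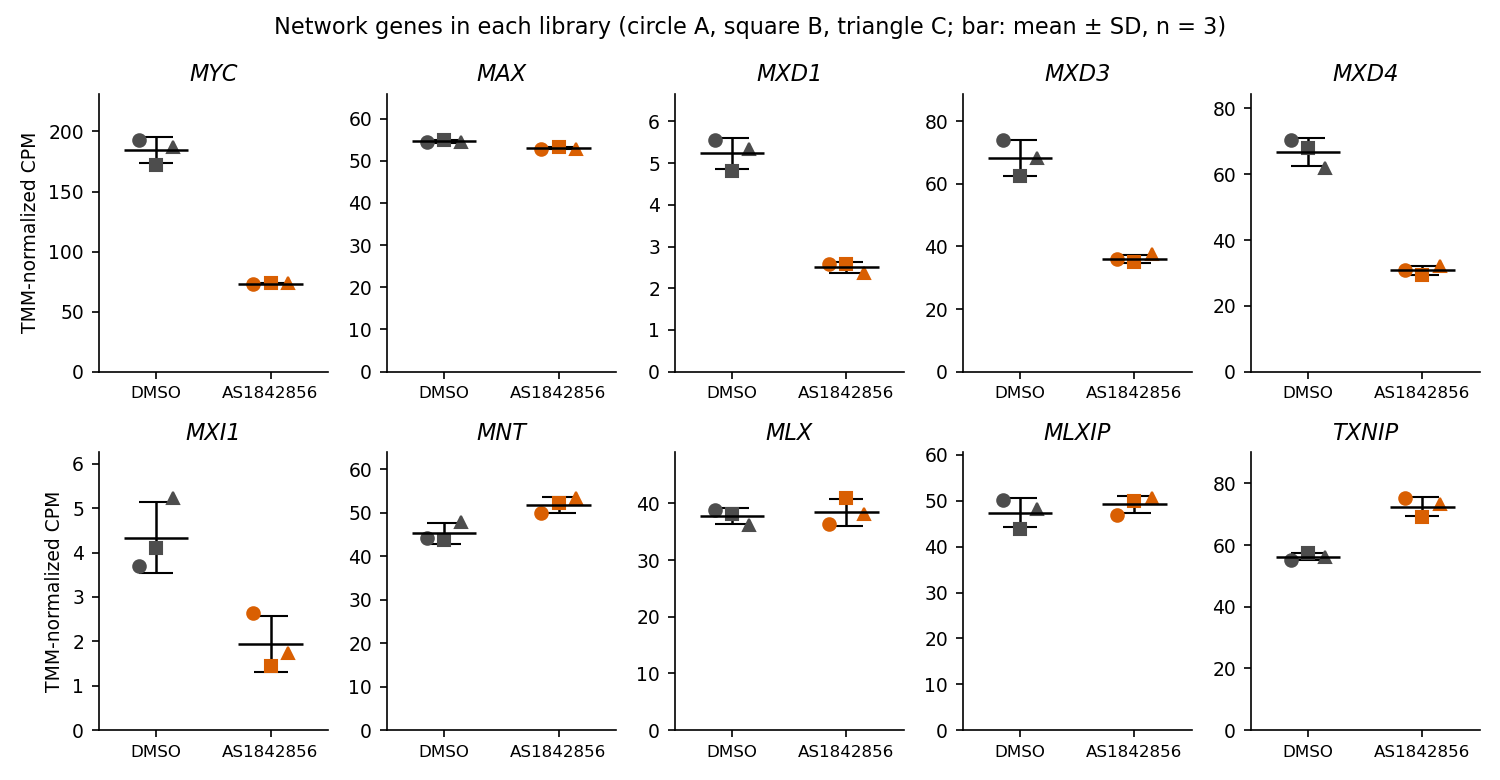
Level of each network gene in each library, in TMM-normalized CPM from 0, with DMSO on the left and AS1842856 on the right of each panel. Circles, squares and triangles are replicates A, B and C, and the bars show mean ± SD (n = 3). MYC, MXD1, MXD3, MXD4 and MXI1 lie lower in all 3 AS1842856 libraries, MNT and TXNIP lie higher, and the groups overlap in MLX and MLXIP.

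MYC (ENSG00000136997, GRCh38 chromosome 8, 127735434 to 127741434), the activating member that drives growth and biosynthesis genes, had 4238, 2644 and 3483 counts in DMSO libraries A, B and C and 1215, 1683 and 1313 counts in AS1842856 libraries A, B and C. In CPM these were 193, 172 and 187 against 72.9, 73.7 and 73.6. Every treated library was below every DMSO library, and the treated libraries lay closer together. The mean went from 184 ± 10.8 to 73.4 ± 0.442 CPM (log2 fold change -1.33, SE 0.04, adjusted p = 1.47e-84, edgeR), which left 39.8% of the DMSO level with a 95% confidence interval of 37.5 to 42.2%. MYC was in place 535 from the lowest of the 14338 log2 fold changes.

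MAX (ENSG00000125952, chromosome 14, 65006174 to 65102695), the DNA-binding partner of MYC and of the MXD proteins, stayed near its DMSO level. MAX measured 54.5, 55.0 and 54.4 CPM in DMSO and 52.9, 53.2 and 52.7 CPM with AS1842856. The libraries of the 2 groups did not overlap, but the gap was small. The log2 fold change was -0.04, with a 95% confidence interval of -0.15 to 0.07 (adjusted p = 0.520, edgeR). FNTB, a farnesyltransferase subunit gene that overlaps MAX on the opposite strand without shared exon bases, had 9.13% as many counts and fell by 0.42 on the log2 scale (adjusted p = 0.0244).

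The MXD genes encode short-lived repressors that compete with MYC for MAX, and several of them are best known from differentiating cells. All 4 MXD genes were called lower. MXD3 (ENSG00000213347, chromosome 5, 177301461 to 177312757) stood at 74.1, 62.6 and 68.2 CPM in DMSO and at 35.9, 34.9 and 37.5 CPM with AS1842856, a log2 fold change of -0.93 (SE 0.06, adjusted p = 3.51e-38, edgeR). MXD4 (ENSG00000123933, chromosome 4, 2247432 to 2262294) stood at 70.5, 68.0 and 62.1 CPM in DMSO and at 30.9, 29.4 and 32.1 CPM with AS1842856, a log2 fold change of -1.12 (SE 0.06, adjusted p = 2.52e-47). In both genes the lowest DMSO library was well above the highest treated library. MXD1 and MXI1, in contrast, were detected at a few CPM only.

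MXD1 (MAD1; ENSG00000059728, chromosome 2, 69897688 to 69942945) had 122, 74 and 99 counts in DMSO and 43, 59 and 42 counts with AS1842856. Its level went from 5.23 ± 0.378 to 2.51 ± 0.131 CPM (log2 fold change -1.06, SE 0.19, adjusted p = 2.87e-07, edgeR). MXI1 (MXD2; ENSG00000119950, chromosome 10, 110207605 to 110287365) had 81, 63 and 97 counts in DMSO and 44, 33 and 31 counts with AS1842856. Its level went from 4.34 ± 0.792 to 1.94 ± 0.623 CPM (log2 fold change -1.18, SE 0.22, adjusted p = 9.24e-07). In both genes the groups of libraries did not overlap, but their low counts gave wide 95% confidence intervals, 36.8 to 62.1% of the DMSO level for MXD1 and 32.5 to 59.7% for MXI1.

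The genes that overlap MXD1 and MXD3 were not called lower. The strand setting of the counting is not given in the sources used here, so reads of overlapping exons could have gone to either gene. SNRNP27, a spliceosome subunit gene with 237 exon bases shared with MXD1 on the same strand and 472% as many counts, was not called (log2 fold change -0.06, adjusted p = 0.580, edgeR). PRELID1, a mitochondrial lipid transfer gene with 1158 exon bases opposite MXD3 and 375% as many counts, rose by 0.28 on the log2 scale. RAB24, a small GTPase gene with 926 exon bases shared with MXD3 on the same strand and 22.5% as many counts, was not called (log2 fold change 0.16, adjusted p = 0.221). No gene with over 100 counts overlapped MXD4, MXI1, MNT, MLXIP or TXNIP.

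MNT (ENSG00000070444, chromosome 17, 2384060 to 2401118), the constitutive repressor that pairs with MAX or MLX, was the MAX partner that rose. It stood at 44.2, 43.6 and 48.0 CPM in DMSO and at 49.8, 52.2 and 53.3 CPM with AS1842856. The groups did not overlap, and the highest DMSO library came within a few CPM of the lowest treated library. The log2 fold change was 0.19 (SE 0.06, adjusted p = 0.00257, edgeR), a small increase to 114% of the DMSO level with a 95% confidence interval of 106 to 124%. With limma on log2(FPKM + 1) and no filter, the call was lost (adjusted p = 0.0502).

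Neither gene of the glucose-sensing dimer was called. MLX (ENSG00000108788, chromosome 17, 42567068 to 42573239) stood at 38.9, 38.2 and 36.3 CPM in DMSO and at 36.3, 40.9 and 38.1 CPM with AS1842856. MLXIP (ENSG00000175727, chromosome 12, 122078722 to 122147347) stood at 50.1, 43.9 and 48.2 CPM in DMSO and at 47.0, 50.1 and 50.5 CPM with AS1842856. In both genes the libraries of the groups overlapped. The log2 fold change was 0.03 for MLX (95% confidence interval -0.10 to 0.16, adjusted p = 0.737, edgeR) and 0.05 for MLXIP (-0.07 to 0.17, adjusted p = 0.496). Changes past about 111% of DMSO for MLX and 112% for MLXIP were outside these intervals. PSMC3IP, a meiotic recombination gene with 770 exon bases opposite MLX and 35.8% as many counts, rose by 0.29 on the log2 scale (adjusted p = 0.0126).

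TXNIP (ENSG00000265972, chromosome 1, 145992435 to 145996600) had the largest increase of the 10 genes. It had 1214, 883 and 1040 counts in DMSO and 1252, 1575 and 1308 counts with AS1842856, or 55.3, 57.5 and 56.0 against 75.1, 69.0 and 73.4 CPM. Every treated library was above every DMSO library. The mean went from 56.3 ± 1.13 to 72.5 ± 3.16 CPM (log2 fold change 0.36, SE 0.05, adjusted p = 2.18e-10, edgeR), or 129% of the DMSO level with a 95% confidence interval of 120 to 138%. It was in place 2410 from the highest of all log2 fold changes.

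**Figure D2:**
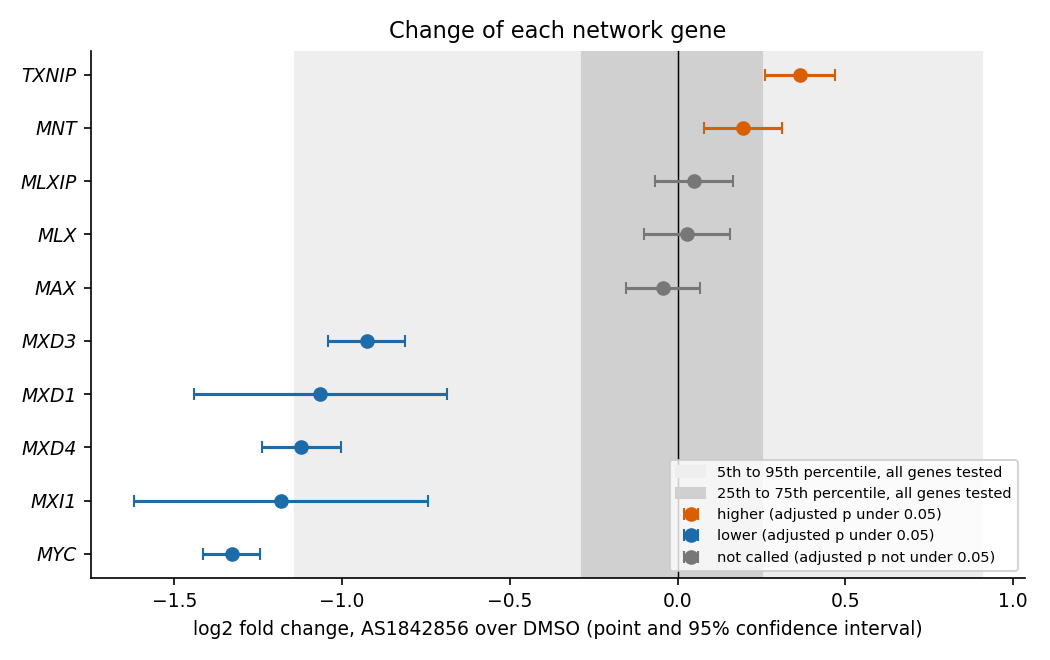
Log2 fold change of AS1842856 over DMSO for each network gene, as a point with its 95% confidence interval, over bands for the 5th to 95th (-1.14 to 0.91) and 25th to 75th (-0.28 to 0.25) percentiles of all genes tested. MYC at -1.33 and MXI1 at -1.18 lie below the wider band, MXD4 at -1.12 and MXD1 at -1.06 lie just inside it, and MAX, MLX and MLXIP have intervals that cross 0.

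Levels of different genes can be set side by side only per length, for which the FPKM values serve. Their length is proportional to all exon bases of a gene, so a gene used mainly as a short isoform reads low. The order of genes and the shares and ratios below depend on this length. In DMSO, MYC was highest at 61.0 ± 3.67 FPKM (SD, n = 3), followed by TXNIP at 15.4 ± 0.285, MXD3 at 13.2 ± 1.12, MAX at 12.3 ± 0.0497, MXD4 at 9.41 ± 0.609, MLX at 8.82 ± 0.314, MNT at 5.15 ± 0.271, MLXIP at 3.39 ± 0.234, MXI1 at 0.936 ± 0.171 and MXD1 at 0.819 ± 0.0604 FPKM. The libraries of MXD3 and MAX overlapped, as did those of MXD4 and MLX and those of MXI1 and MXD1, so the order within these pairs is within their spread.

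With AS1842856 MYC was still highest but close to TXNIP, at 24.3 ± 0.126 and 19.9 ± 0.873 FPKM. MAX (11.9 ± 0.0636 FPKM) and MLX (8.97 ± 0.539 FPKM) came next and stood above every MXD gene, since MXD3 was at 6.96 ± 0.239 and MXD4 at 4.34 ± 0.184 FPKM. MNT, at 5.89 ± 0.196 FPKM, stood between MXD3 and MXD4. MLXIP was at 3.52 ± 0.134 FPKM, and MXI1 (0.419 ± 0.135) and MXD1 (0.392 ± 0.0209) overlapped at the bottom.

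**Figure D3:**
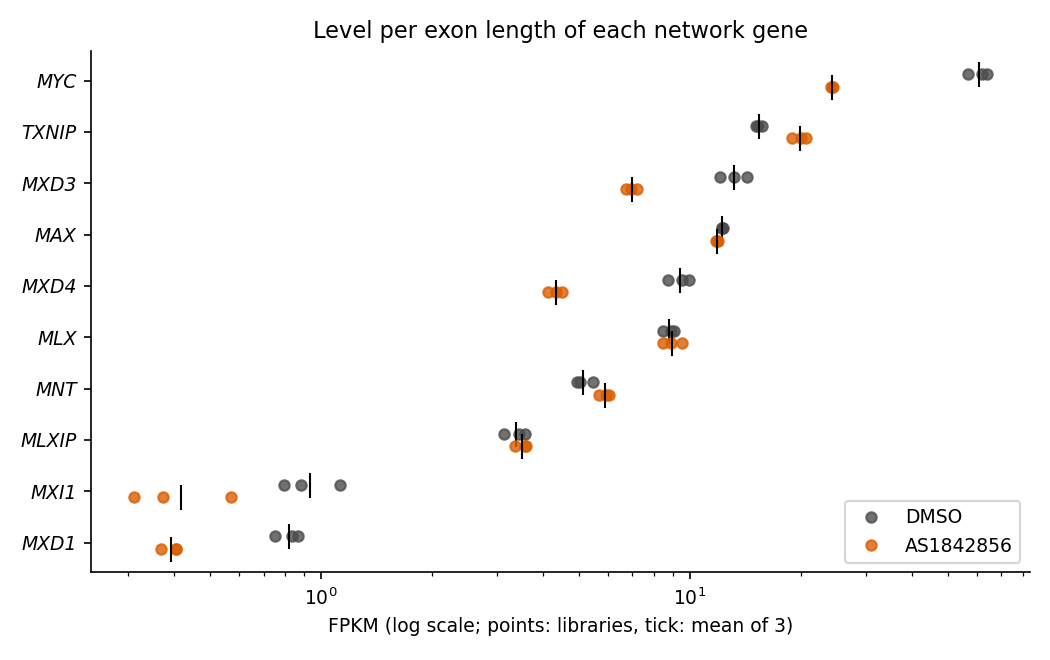
FPKM of each network gene on a log axis, ordered by the DMSO mean, with 1 point per library and a tick at the mean of 3 libraries. MYC moves from 61.0 to 24.3 FPKM towards TXNIP, which moves from 15.4 to 19.9. MXD3, which overlaps MAX in DMSO, moves below MAX and MLX. MXD4, already below MAX in DMSO, moves from an overlap with MLX to below it.

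Summed over 7 MAX partners (MYC, MXD1, MXD3, MXD4, MXI1, MNT and MGA, a large MAX partner that acts in a Polycomb-type repressor complex, but not MYCL, which had few counts), FPKM went from 91.9 ± 5.02 to 43.6 ± 0.536, or 47.5% of DMSO, while MAX itself stayed at about 12 FPKM. The 4 MXD genes together went from 24.3 ± 1.39 to 12.1 ± 0.453 FPKM, or 49.8%. Within a library, the ratio of MYC to MAX went from 4.98 ± 0.317 to 2.05 ± 0.0133. The share of MYC in the FPKM of its MAX partner set was 66.4, 65.8 and 66.9% in DMSO and 55.8, 56.3 and 55.0% with AS1842856. The difference of means was -10.6 percentage points (exact two-sided permutation p = 0.1, the smallest that 3 against 3 libraries allow).

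The share that increased most was that of MNT. It was 5.22, 5.73 and 5.88% in DMSO and 13.1, 13.7 and 13.7% with AS1842856, and the ratio of MNT to MYC went from 0.0846 ± 0.00512 to 0.242 ± 0.00702. MGA went from between 1.54 and 1.62% to between 2.88 and 3.16%, and MXD3 from between 13.9 and 14.8% to between 15.6 and 16.3%. The share of MXD4 overlapped between the groups. These are shares of transcripts, and protein was not measured.

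**Figure D4:**
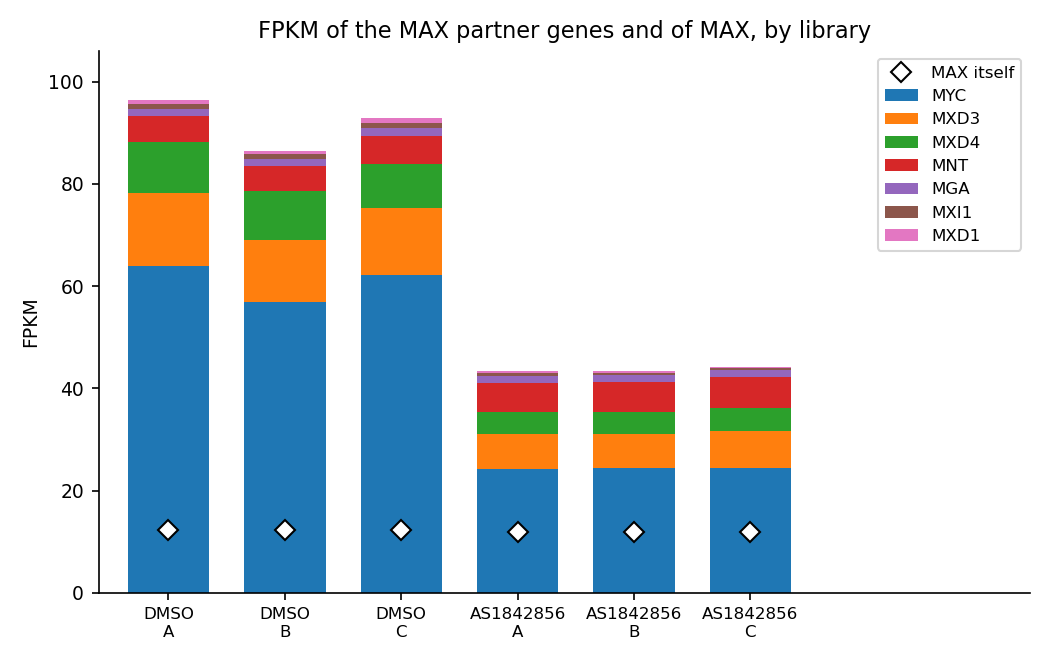
FPKM of 7 MAX partner genes stacked for each library, with the FPKM of MAX as diamonds. The stack goes from a mean of 91.9 to a mean of 43.6 while MAX stays at about 12, and the MNT segment stays at 5 to 6 FPKM.

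On the MLX side, the share of MLXIP in the summed FPKM of the MLX partners (MLXIP, MLXIPL, MNT, MXD1 and MXD4) was 18.5, 17.0 and 18.7% in DMSO and 24.4, 25.4 and 24.8% with AS1842856. The groups did not overlap, with a difference of means of 6.82 percentage points (exact two-sided permutation p = 0.1, the smallest possible). MLXIP itself was not called, and MXD4 and MXD1 in the same sum fell. The ratio of MLXIP to MLX was 0.385 ± 0.0292 and 0.393 ± 0.0161, and that of TXNIP to MLXIP went from 4.57 ± 0.411 to 5.66 ± 0.432.

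Of the remaining genes of the network, MYCN, the MYC paralog of neural tumours, and MLXIPL, which encodes ChREBP, had 0 counts in all 6 libraries, where 3 counts would be 0.131 to 0.196 CPM. MYCL, the third MYC paralog, had 41, 24 and 20 counts in DMSO and 8, 5 and 8 with AS1842856 (log2 fold change -2.01, SE 0.42, adjusted p = 8.34e-06, edgeR), at 1.87, 1.56 and 1.08 CPM in DMSO and 0.383 ± 0.143 CPM with AS1842856. MGA stood at 25.6 ± 0.746 and 23.7 ± 1.38 CPM and was not called (log2 fold change -0.11, adjusted p = 0.238).

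Genes of the proteins that the network works through were followed in lists. Over all genes tested, 56.0% were called, 27.6% higher and 28.4% lower. The share called was 63.6% of the corepressor genes and 44.4% of the MYC cofactor genes below. Of 22 subunits of the SIN3 and NCOR corepressors, which the MXD proteins and MNT bring to DNA, 8 rose, 6 fell and 8 were not called, with a median log2 fold change of 0.02. GPS2, an NCOR complex subunit, went from 6.88 ± 1.23 to 10.3 ± 1.21 CPM (log2 fold change 0.56), and BRMS1, a SIN3 complex subunit, rose by 0.51 on the log2 scale. TBL1X, an exchange factor of the NCOR complex, went from 34.1 ± 1.58 to 21.8 ± 0.998 CPM (log2 fold change -0.65), and SAP30, which bridges SIN3 and its deacetylases, had a log2 fold change of -0.55. Of 18 cofactors that MYC binds, 4 rose, 4 fell and 10 were not called, with a median of 0.02. The changes in cofactors were small. The 2 largest increases were in CCNT1, the cyclin of the elongation kinase P-TEFb, at 0.38 and in ZBTB17 (MIZ1), through which MYC represses genes, at 0.34, and the 2 largest decreases were in ACTL6A, a chromatin remodelling subunit, at -0.19 and in PAF1, an elongation factor subunit, at -0.18.

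Of 15 enzymes and regulators that set the turnover of MYC protein, 5 rose, 4 fell and 6 were not called, with a median of -0.06. The share called, 60.0%, was close to the 56.0% of all genes tested. PPP2R5A, a regulatory subunit of the phosphatase PP2A that acts on MYC, went from 33.4 ± 0.701 to 49.7 ± 1.67 CPM (log2 fold change 0.57). GSK3B, the kinase that marks MYC for FBXW7, rose by 0.27 on the log2 scale. This is a change in transcript only. For the protein of this kinase the paper reports the opposite direction, a decrease in treated cells of the same line. SKP2, an F-box protein that ubiquitinates MYC, had a log2 fold change of -0.33, and AURKA, a kinase that stabilizes MYC proteins, went from 312 ± 3.50 to 257 ± 2.88 CPM (log2 fold change -0.28).

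Genes that MYC is known to activate were followed in 3 lists, whose counts are set beside the shares over all genes tested, 56.0% called, 27.6% higher and 28.4% lower. Of 16 nucleolar and ribosome assembly genes, 8 rose, 1 fell and 7 were not called, a share called close to that of all genes, with a median log2 fold change of 0.09. RRP12 (0.49) and BOP1 (0.29), both needed to build ribosomal subunits, had the largest increases, and LYAR, a nucleolar growth regulator, was the gene that fell, by 0.24 on the log2 scale. Of 15 growth and translation genes tested, 10 rose, 1 fell and 4 were not called, with a median of 0.18. SLC1A5, the glutamine transporter, went from 206 ± 9.16 to 309 ± 5.26 CPM (log2 fold change 0.58), and TFRC, the transferrin receptor, rose by 0.36. SLC7A5, a transporter of large neutral amino acids, went from 391 ± 16.9 to 283 ± 6.35 CPM (log2 fold change -0.47). CCND2, the sixteenth gene of this list, had 0 counts in all 6 libraries.

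The metabolic genes that MYC is known to activate were split, with 7 higher, 7 lower and 2 not called of 16, and a median of -0.05. SHMT2, the mitochondrial one-carbon enzyme, went from 163 ± 3.03 to 232 ± 8.59 CPM (log2 fold change 0.51), and NME1, a nucleoside diphosphate kinase gene whose exons are shared with the NME1-NME2 readthrough gene, rose by 0.34. GART, a purine synthesis enzyme, went from 205 ± 4.20 to 154 ± 7.24 CPM (log2 fold change -0.41), and PKM, pyruvate kinase, had a log2 fold change of -0.30. Of 9 tested genes that MYC is known to repress, 3 rose and 6 fell, with a median of -0.29. All 9 were thus called, where 56.0% of all genes tested were, 27.6% higher and 28.4% lower. NDRG1, a stress-induced gene, went from 2.37 ± 0.335 to 4.05 ± 0.783 CPM (log2 fold change 0.79, and 0.18 with the call lost on the log2(FPKM + 1) scale), and CDKN2B, an inhibitor of CDK4 and CDK6 that lies opposite the antisense gene CDKN2B-AS1, rose by 0.59. GAS1, a growth arrest membrane protein, had a log2 fold change of -0.89. GADD45A, a growth arrest and damage gene that is also a FOXO target, had one of -0.59. The other 3 genes of this list were too low to test.

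**Figure D5:**
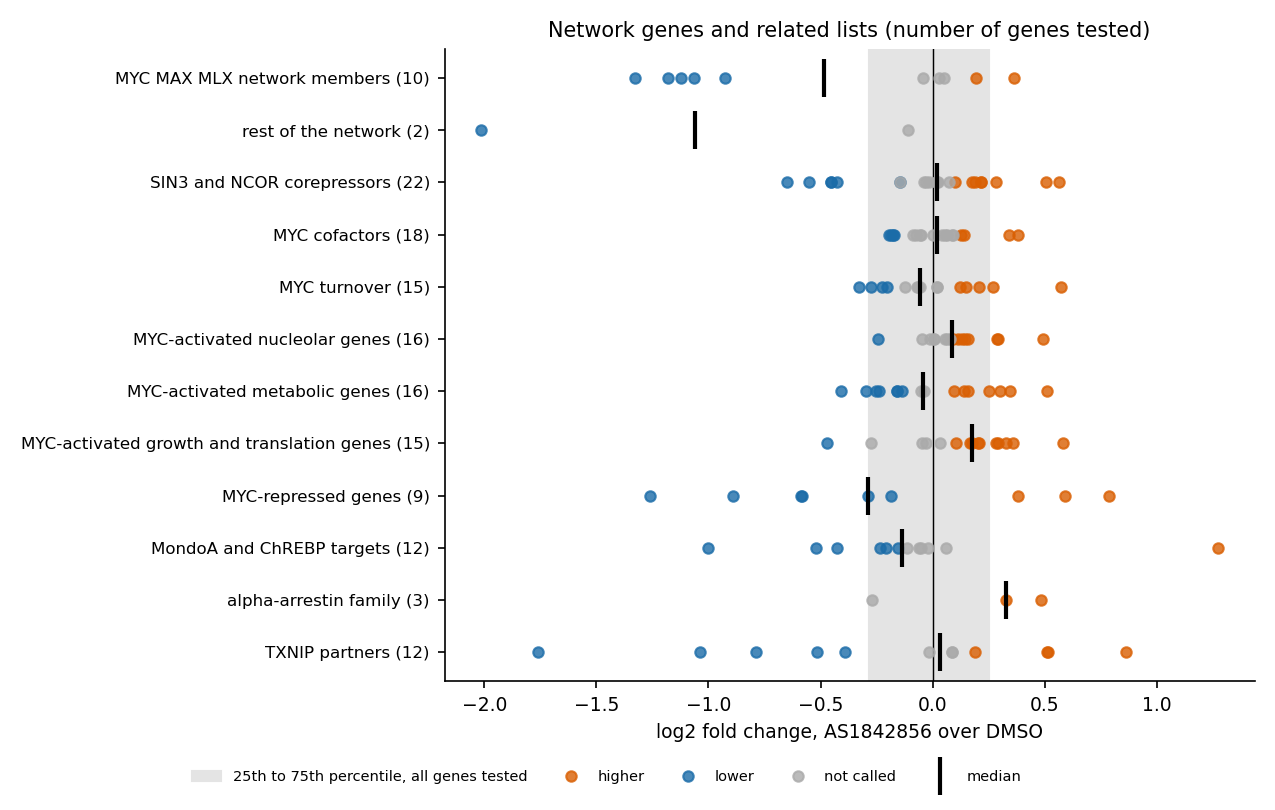
Log2 fold change of each tested gene of the network and of the related lists, 1 point per gene and a tick at the median of each list, with the number tested in parentheses. The members sit in a lower cluster of 5 and an upper cluster of 5, and the lists of genes that MYC is known to activate have medians from -0.05 to 0.18, inside the band for the middle of all genes tested (-0.28 to 0.25).

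Of 12 other known targets of MondoA or ChREBP tested, 1 rose, 6 fell and 5 were not called, with a median log2 fold change of -0.14. The share called was 58.3%, near the 56.0% of all genes tested, of which 27.6% were higher and 28.4% lower. The list pools targets of both factors, and MLXIPL, the gene of ChREBP, had 0 counts in all 6 libraries. Whether MondoA had a part in these changes was not tested. BHLHE40, a circadian repressor, was the gene that rose, with 49.7, 50.8 and 49.5 CPM in DMSO and a mean of 121 ± 2.29 CPM with AS1842856 (log2 fold change 1.27). ELOVL6, a fatty acid elongase, went from 125 ± 6.95 to 62.4 ± 1.72 CPM (log2 fold change -1.001), and PFKFB3, which drives glycolysis through fructose-2,6-bisphosphate, had a log2 fold change of -0.52. ARRDC4, the alpha-arrestin that MondoA is known to induce beside TXNIP, and G6PC, the glucose-6-phosphatase of liver, had 0 counts in all 6 libraries, and 3 further genes were too low to test.

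Of the 5 other alpha-arrestins, 3 were tested, 2 rose and 1 was not called, where 27.6% of all genes tested were called higher. ARRDC3, which has been linked to the turnover of membrane receptors, went from 99.3 ± 4.05 to 124 ± 2.67 CPM (log2 fold change 0.33). ARRDC2 went from 3.78 ± 0.934 to 5.38 ± 0.690 CPM (log2 fold change 0.48, adjusted p = 0.0123, edgeR). That call was lost without DMSO replicate B, where the log2 fold change was 0.31, without AS1842856 replicate C, where it was 0.38, and in DESeq2 (adjusted p = 0.0971).

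The genes tied to the TXNIP protein were called in both directions. Of 12 tested genes of the thioredoxin system, glucose transport and phosphorylation and TXNIP control, 4 rose, 5 fell and 3 were not called. The median log2 fold change over the 12 was 0.03. In all, 9 of the 12 were called, where 56.0% of all genes tested were, 27.6% higher and 28.4% lower. SLC2A1, the glucose transporter GLUT1 that TXNIP removes from the membrane, stood at 231, 219 and 218 CPM in DMSO and at 109, 105 and 112 CPM with AS1842856, a log2 fold change of -1.04 (SE 0.04, adjusted p = 2.65e-70, edgeR). NEDD4L, a ubiquitin ligase, went from 12.5 ± 0.759 to 3.71 ± 0.374 CPM (log2 fold change -1.76, and -0.50 on the log2(FPKM + 1) scale, which compresses low genes). HK1, a hexokinase that makes glucose-6-phosphate, went from 236 ± 2.53 to 338 ± 5.48 CPM (log2 fold change 0.52), and PRKAA2, a catalytic subunit of the kinase AMPK, rose by 0.86 at under 5 CPM (0.20 on the log2(FPKM + 1) scale, with the call lost). Thioredoxin itself (TXN) was not called, with a log2 fold change of -0.02.

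Over the 6 libraries, the genes whose log2(CPM + 1) followed MYC most closely, among 9203 genes with a mean of at least 10 CPM, were ENO1, a glycolytic enzyme (Pearson r = 0.9998), LPIN1, a phosphatidate phosphatase (0.9997), and UBALD2 (0.9996). Those most like TXNIP were TMEM70, an ATP synthase assembly factor (0.9986), EMC8, a subunit of a membrane insertion complex (0.9985), and ELK3, an ETS factor (0.9984). A correlation above 0.95 was shared by 1587 genes with MYC and by 1047 with TXNIP. The 6 points fall in 2 treatment groups, so these correlations describe the step between the groups and are given without a p.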

How the data were processed

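RNA-Seq was measured in 6 libraries of BT549 cells, 3 per group, and each sample was placed in its group by the treatment in its labels. The paper calls the 3 samples of a group biological replicates, and nothing further says that they came from separate cultures on separate days, so p-values measure the spread between these samples. The paper names STAR for mapping, and the submitters' processing notes name CASAVA, Bowtie 0.12.2 and GRCh38 (hg38). The counting tool and its strand setting are not given in the sources used here. The authors deposited raw counts per gene and FPKM values per library. The lengths behind the deposited FPKM were proportional to all exon bases of a gene in GENCODE release 29, for example 3001 for MYC and 13905 for MLXIP, so a gene used mainly as a short isoform reads low. All 58735 identifiers matched GENCODE release 29 (Ensembl 94), which gave symbols and positions.

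For the counts, edgeR 4.0.16 was run under R 4.3.3. The filterByExpr step (minimum count 10, minimum total 15) kept 14338 genes, which held 99.9% of all reads counted. TMM factors lay between 0.995 and 1.01. The model held the group alone and was fitted by robust glmQLFit and tested by glmQLFTest, with Benjamini-Hochberg adjustment and a threshold of 0.05. The standard error is the size of the log2 fold change over the square root of F. The common biological coefficient of variation was 0.0374. Shares of FPKM were compared by exact two-sided permutation tests over libraries. No pair of libraries within a group agreed within sampling noise (chi-square per degree of freedom 2.32 to 3.12). A level of 3 counts was taken as the floor, and it covers counting error only. The fit was tested on simulated data first.

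The members and the gene lists were chosen with earlier results of these data known, and the lists come from general knowledge. All 10 members were named. Of the other lists, the 2 largest increases and 2 largest decreases among called genes with a mean of at least 1 CPM were named, with the 3 genes most like the member with the largest rise or fall, and the genes that overlap a member. MYCL, MGA, MYCN, MLXIPL, TXN and the genes at 0 counts were named after their values were seen. Alternatives were DESeq2 1.42.0, its size factors in edgeR, scaling by library totals, omission of the filter, a filter at a mean of 50 counts, the replicate letter as a block, limma-trend (limma 3.58.1) on FPKM with a pseudocount of 1 or 0.1 at a mean FPKM of at least 0.5 and with a pseudocount of 1 unfiltered, and leaving out each library. The result of 1 cell type marker is not reported here.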

Additional observations from a re-analysis of the deposited data

How the results depend on the processing

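All 7 calls among the members held in the count-based alternatives, and the number of genes called ranged from 6453 to 8030 over the alternatives with all 6 libraries and from 7427 to 7678 with 1 library left out. The exception among the members was MNT, which had a log2 fold change of 0.16 and an adjusted p of 0.0502 with limma on log2(FPKM + 1) and no filter. On the log2(FPKM + 1) scale, which compresses low genes, the change was -0.39 in MXD1, -0.45 in MXI1, -0.50 in NEDD4L, 0.18 in NDRG1 and 0.20 in PRKAA2. With each library left out in turn, MYC ranged from -1.38 to -1.30, MXI1 from -1.45 to -0.99 and TXNIP from 0.34 to 0.40, and the calls held. Of the members not called, MAX ranged from -0.052 to -0.043 and kept its sign. MLX ranged from -0.023 to 0.064, with a negative value without DMSO replicate C (-0.0059) or AS1842856 replicate B (-0.023), and MLXIP from -0.0036 (without DMSO replicate B) to 0.090. The difference in the MYC share ranged from -11.0 to -10.3 percentage points and that in the MLXIP share from 6.30 to 7.12.

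Of the lists, the MYC cofactors had 5 genes called with limma on log2(FPKM + 1) and no filter. The remaining network genes had 0 called with a mean of at least 50 counts and with limma at a mean FPKM of at least 0.5 under either pseudocount, since MYCL was below these filters. The alpha-arrestins had 1 called with DESeq2 and with limma on FPKM under all 3 settings, and 1 to 3 with a library left out (1 without DMSO replicate B). ACTL6A, NDRG1 and PRKAA2 lost their calls with limma on log2(FPKM + 1) and no filter. The cause was not tested. With the letter as a replicate block, 7862 genes and 7 members were called, and no call of a member changed. Same-letter deviations correlated at -0.0676, 0.0137 and -0.0659 over 9204 genes for A, B and C. The letters A and C did not correlate best with their own letter, while B did. All these values are small, and with 3 libraries per group they cannot tell whether same-letter samples were paired. Low counts gave MXD1 and MXI1 standard errors of 0.19 and 0.22, where those of the other members were 0.04 to 0.07.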
